A study of Arabidopsis thaliana with 102 samples.

Results

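Glutathione transferases (GSTs) join the tripeptide glutathione to reactive or foreign molecules, which marks the products for transport into the vacuole, and some members bind or carry small molecules without conjugating them. In plants most GST genes belong to the tau (GSTU) and phi (GSTF) classes, many of which lie in tandem arrays and respond to chemicals, pathogens and oxidative stress. Transcription factors of the TGA group, which bind the core TGACG, and WRKY factors, which bind the W-box, are known regulators of such genes in Arabidopsis. The present account covers 39 genes chosen by their gene identifiers, of 34133 listed genes: 28 of the tau class (GSTU1 to GSTU28) and 11 of the phi class (GSTF2, GSTF3, GSTF6 to GSTF14). GSTF4 and GSTF5 were not among them. No cut on expression was used to choose them, but they were chosen with earlier results of these data known. A gene was tested when its FPKM (a read level normalised to transcript length and library size) exceeded 1 in at least 1 of 54 libraries, and 37 of the 39 members passed among 21864 genes. GSTU15 and GSTU21 did not pass, with highest values of 0.220 and 0.549 FPKM.

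The study followed recovery from endoplasmic reticulum (ER) stress. Seedlings aged 5 days were held for 6 h in 500 ng/mL tunicamycin (Tm), an inhibitor of protein N-glycosylation, or in its solvent DMSO as mock, and were then moved to medium without drug. Whole seedlings were harvested 0, 12 or 24 h later from Col-0 and from bzip28-2 and bzip60-2, which carry T-DNA insertions in the genes of the unfolded protein response transcription factors bZIP28 and bZIP60 in the Col-0 background. The 18 groups of genotype, treatment and time had 3 RNA-seq replicates each, and a replicate was a pool of 12 seedlings. Binding of the factors was mapped by ChIP-seq with an antibody to GFP after Tm, in a line that expresses GFP-bZIP28 from the 35S promoter and in a line that expresses GFP-bZIP60 from the bZIP60 promoter in bzip60-2, from 2 ChIP samples each per time-point. The first promoter is active in most cells, so the first line, which is in the Col-0 background, does not follow the natural pattern of bZIP28. The paper reports bZIP28 transcript levels in that line similar to those of Col-0, and constitutive in mock and Tm.

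The 54 libraries had an estimated relative depth between 0.844 and 1.26. The estimate comes from steps fitted to low FPKM, and that fit is no test that such steps exist. Transcripts of both targeted genes were still counted in their mutants (bZIP28 in mock seedlings at 0 h was at 24.7 FPKM in bzip28-2 and 11.1 in Col-0), and because these gene-wide values include reads outside the insertions they do not check the genotypes. Of the defining markers, those of green tissue (4 genes) and root (5 genes) were expressed throughout, while 6 markers of pollen, seed and flower reached a summed level of at most 1.61 FPKM. The summed green markers stood at 22787 to 27527 FPKM in mock and 7047 to 9047 in Tm-treated Col-0 at 24 h, and the summed root markers at 2050 to 2396 in mock and 741 to 997 in Tm-treated Col-0 at 0 h. Their part in the results on the GSTs was not tested, and in whole seedlings fewer cells of a type cannot be told apart from less RNA per cell.

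In mock-treated Col-0 at 0 h the members differed widely in FPKM, a level per transcript length. GSTU19, a tau enzyme active on many test substrates, was at 1031 ± 64.7 FPKM (mean ± SD, n = 3) and GSTF9 at 917 ± 67.7, and the libraries of these leading genes overlapped. GSTF10 followed at 609 ± 109 without overlap, then GSTU20 at 381 ± 103, GSTF6 at 297 ± 88.4, GSTF8 at 249 ± 70.1, GSTF2 at 178 ± 33.1 and GSTU17 at 118 ± 27.5, and from GSTF6 to GSTU17 each overlapped its neighbour. In all, 8 members were at 100 FPKM or more, 17 between 10 and 100, 9 between 1 and 10 and 5 below 1. GSTU3 and GSTU12 were among the 5 lowest. The 5 members with the highest mean over all 54 libraries were GSTF6 (2490 FPKM), GSTF7 (2326), GSTU19 (1682), GSTF9 (1087) and GSTF2 (750), so that 3 phi genes overtook genes that led in mock seedlings.

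Summed over the family, the transcripts took 0.516% ± 0.0426 of all FPKM in mock Col-0 at 0 h and 0.544% ± 0.0471 after Tm (n = 3 each), and these libraries overlapped. At 12 h of recovery the share was 0.713% ± 0.0220 in mock and 1.85% ± 0.0722 after Tm, and at 24 h 0.577% ± 0.0362 and 3.14% ± 0.234. The libraries did not overlap at either time. Most of the difference lay in the phi class, whose 11 genes took 0.253% ± 0.0289 in mock and 2.53% ± 0.235 after Tm at 24 h, while the 28 tau genes took 0.324% ± 0.00877 and 0.610% ± 0.00671. Most of the phi difference came from GSTF7 (mean 108 FPKM in mock and 9516 after Tm), GSTF6 (159 and 7739) and GSTF2 (198 and 2128). The summed phi means were 2251 and 21801. By the calls described below the classes were alike at 24 h, with 36.4% of phi and 34.6% of tested tau genes higher.

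**Figure D1:**
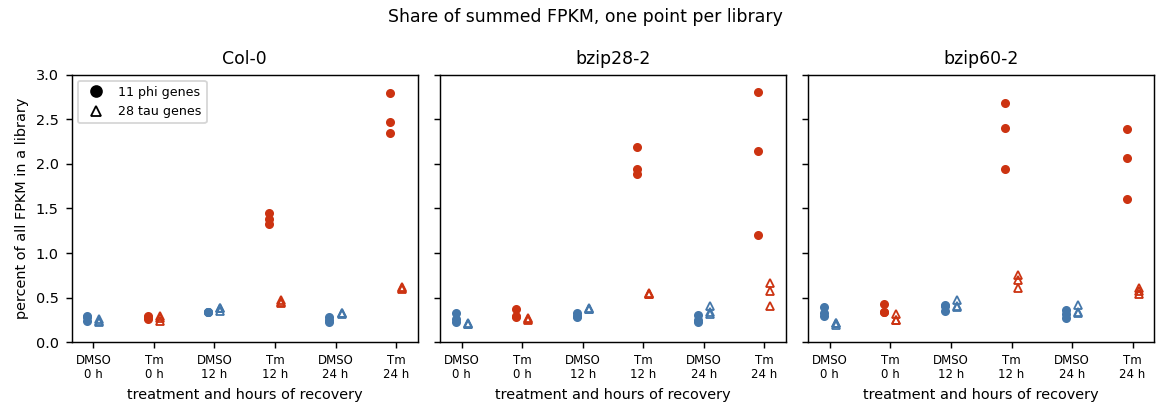
Share of all FPKM taken by the 11 phi genes and the 28 tau genes in each library, by genotype, treatment and hours of recovery; each point is 1 library. In Tm-treated Col-0 the phi share stood between 2.34% and 2.79% at 24 h, against 0.227% to 0.284% in mock.

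A member was called higher or lower after Tm when the log2 fold change against mock was over 1 in size and the adjusted p was under 0.01 (limma on log2(FPKM + 1), Benjamini-Hochberg adjustment over all genes tested). At 0 h, straight after the drug, 1 of the 37 members was called higher and 0 lower in wild-type Col-0, where 0.627% of all genes were called higher and 0.325% lower. At an unadjusted p under 0.05 there were 10 members at 0 h in Col-0 (18.4% of all genes), and the mutants bzip28-2 and bzip60-2 had 14 (28.8%) and 13 (19.2%). At 12 h, 12 were higher and 4 lower, beside 7.18% and 1.78% of all genes, and at 24 h 13 were higher and 1 lower, beside 7.39% and 3.22%. The members called higher made up 32.4% of those tested at 12 h and 35.1% at 24 h, above the share over all genes. The family was chosen with earlier results of these data known, so this contrast is not independent of that choice. The median log2 fold change of the members was -0.03 at 0 h, 0.20 at 12 h and 0.39 at 24 h, beside 0, 0.08 and 0.04 over all genes.

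In the mutants too the calls were fewest at 0 h and most at 12 h. In bzip28-2, 1 member was higher and 0 lower at 0 h (0.938% and 0.581% of all genes), 12 higher and 7 lower at 12 h (8.65% and 5.76%), and 10 higher and 2 lower at 24 h (3.93% and 1.8%). In bzip60-2, 1 was higher and 0 lower at 0 h (0.512% and 0.338%), 10 higher and 7 lower at 12 h (8.08% and 6.13%), and 11 higher and 2 lower at 24 h (5.36% and 0.974%). Over the 9 comparisons 17 members were called higher at least once, 10 lower at least once, 0 in both directions and 10 in neither, the last being GSTU5, GSTU6, GSTU7, GSTU13, GSTU16, GSTU19, GSTU23, GSTU24, GSTU27 and GSTF9. The counts in bzip28-2 at 24 h rested on single libraries. Leaving out replicate 1 of its Tm-treated libraries left 0 calls, and leaving out replicate 2, which stood low for the responding genes, gave 14. The count also fell to 0 without mock replicate 1, 4 without mock replicate 2, 1 without mock replicate 3 and 4 without Tm replicate 3. In bzip60-2 it was 8 at 24 h without Tm replicate 1, 7 without Tm replicate 2, 8 without mock replicate 3, and 10 at 12 h without Tm replicate 2.

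**Figure D2:**
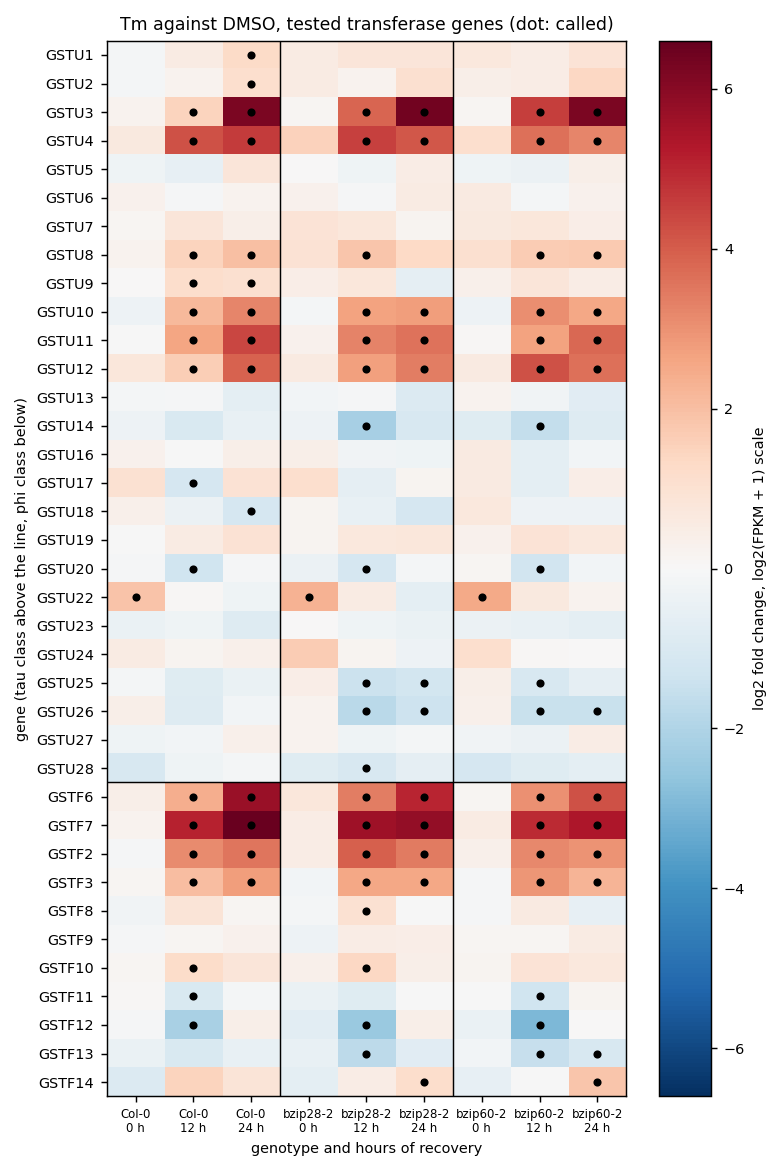
Log2 fold change (Tm against DMSO, on log2(FPKM + 1)) of the 37 tested members in 9 comparisons of genotype and hours of recovery; a dot marks a called member. GSTU22 was the only member called at 0 h, and 9 members carried a dot in all 3 genotypes at both 12 and 24 h.

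GSTU22 (AT1G78340), a tau gene, was the one member called at 0 h, in every genotype. In Col-0 it was at 12.2, 10.9 and 13.3 FPKM in mock and at 36.8, 56.9 and 49.8 after Tm, a log2 fold change of 1.87 (SE 0.17, adjusted p = 0.007). In bzip28-2 the mock libraries were at 14.4, 11.6 and 8.52 and the Tm libraries at 60.0, 57.0 and 60.5 (2.29, SE 0.18, adjusted p = 0.0028). In bzip60-2 they were at 9.55, 8.57 and 9.34, and at 56.0, 62.1 and 52.6 (2.51, SE 0.08, adjusted p = 0.00034). The groups did not overlap in any genotype. By 12 h mock Col-0 itself had 76.6, 70.1 and 83.5 FPKM, and the Tm-treated libraries at 82.0, 78.5 and 81.8 overlapped it. The Col-0 call at 0 h was lost without Tm replicate 2 or 3 or any 1 mock replicate (adjusted p up to 0.0596 over the alternatives), and in bzip28-2 without any 1 Tm replicate or without mock replicate 2. Without mock replicate 1 of bzip28-2, 2 members were called there.

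In Col-0, 11 members rose at both 12 and 24 h, and 9 of them were called at both times in the mutants as well, the calls of bzip28-2 at 24 h resting on single libraries as given above: the phi genes GSTF2, GSTF3, GSTF6 and GSTF7 and the tau genes GSTU3, GSTU4, GSTU10, GSTU11 and GSTU12. GSTU8 was called in all 3 genotypes at 12 h only. GSTF7 (AT1G02920), a pathogen-responsive phi gene, had the largest log2(FPKM + 1) change at both times in Col-0, although by ratio of means GSTU3 changed more at 24 h. It was at 96.0, 104 and 125 FPKM in mock and 3813, 3573 and 3507 after Tm at 12 h (log2 fold change 5.06, SE 0.12, adjusted p = 2e-05). At 24 h it was at 68.7, 156 and 98.0 in mock and 9655, 8321 and 10571 after Tm (6.53, SE 0.31, adjusted p = 0.00011), which is a ratio of means of 88.4. The highest mock library lay far below the lowest Tm library at both times.

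GSTF6 (AT1G02930), a phi enzyme that takes part in making the phytoalexin camalexin, lies next to GSTF7. In Col-0 it was at 789, 868 and 797 FPKM in mock and 4796, 4126 and 4061 after Tm at 12 h (log2 fold change 2.40, SE 0.14, adjusted p = 0.00016), and at 84.4, 240 and 153 in mock and 7500, 6702 and 9014 after Tm at 24 h (5.71, SE 0.39, adjusted p = 0.00031). Its mock level moved with time, and the larger fold at 24 h joined a lower mock and a higher Tm level. GSTF6 and GSTF7 share 9.41% and 9.19% of their 50-base windows, GSTF2 and GSTF3 2.46% and 3.51%, and GSTU17 and GSTU18 1.98% and 2.27%, so part of their reads could have been split between the partners. The other 33 members share none.

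GSTF2 (AT4G02520), a phi protein that binds camalexin and other indoles, was at 129, 122 and 124 FPKM in mock and 1107, 1087 and 1047 after Tm at 12 h (log2 fold change 3.10, SE 0.06, adjusted p = 1.5e-05). At 24 h it was at 120, 285 and 188, and at 2069, 2257 and 2058 (3.51, SE 0.31, adjusted p = 0.00067). GSTU4 (AT2G29460), a tau gene of the chromosome 2 array, was at 6.17, 6.97 and 5.42 in mock and 119, 157 and 117 after Tm at 12 h (4.19, SE 0.14, adjusted p = 3.3e-05). At 24 h GSTU4 had a log2 fold change of 4.61. For neither gene did the change from 12 to 24 h pass the test of that difference.

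GSTU3 (AT2G29470), the neighbour of GSTU4, behaved otherwise. It was listed at 0, 0 and 0.182 FPKM in mock and at 1.43, 2.42 and 2.11 after Tm at 12 h (log2 fold change 1.48, SE 0.15, adjusted p = 0.00086). At 24 h it was at 0.0518, 0.346 and 0.0550 in mock and 89.0, 70.3 and 94.4 after Tm (6.22, SE 0.16, adjusted p = 4e-05). Its Tm libraries thus stood far higher at 24 h than at 12 h in Col-0. On the log2(FPKM + 1) scale the change of such low genes is understated, and the ratio of means at 24 h was 560. The other steady risers had Col-0 log2 fold changes of 1.61 (GSTU12), 2.02 (GSTF3), 2.13 (GSTU10) and 2.61 (GSTU11) at 12 h and of 3.87, 2.75, 3.23 and 4.39 at 24 h. The GSTU12 call at 12 h was lost without mock replicate 1 or 3.

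**Figure D3:**
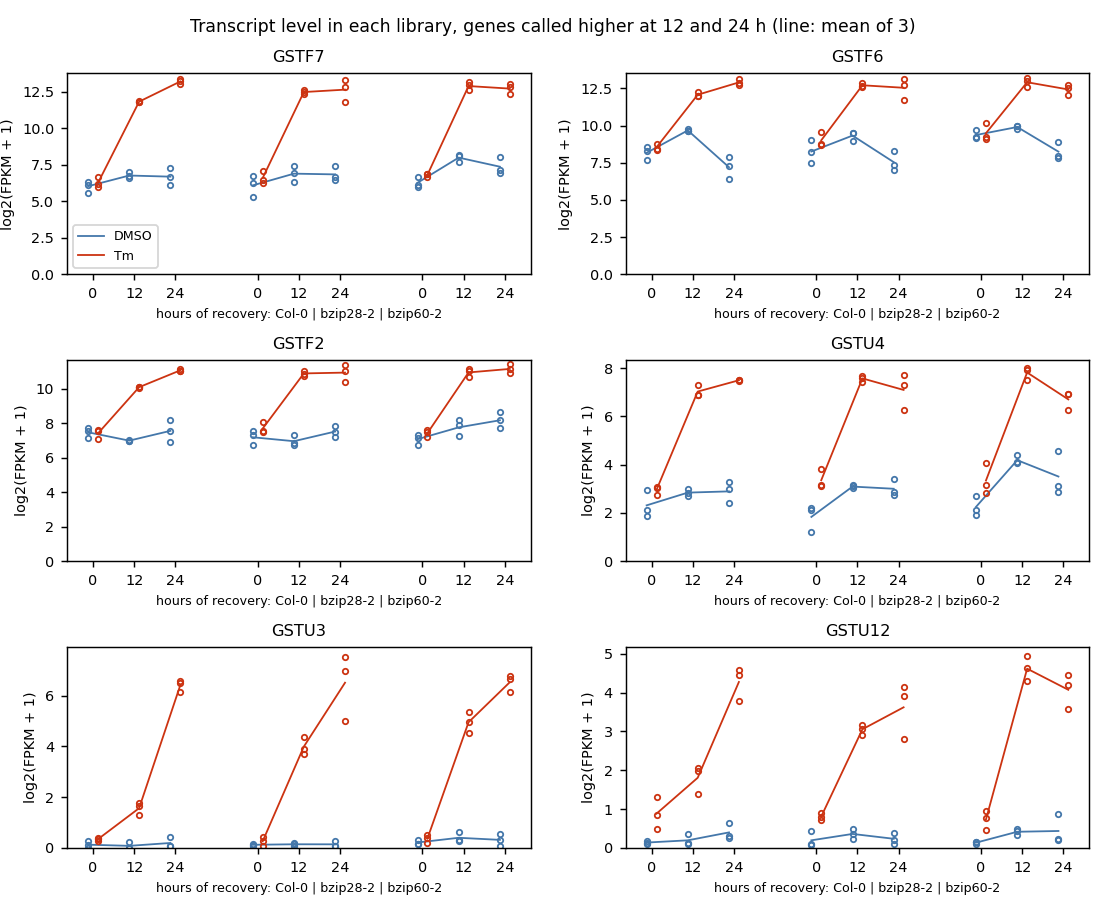
Level of 6 members as log2(FPKM + 1) against hours of recovery in mock and Tm-treated seedlings of the 3 genotypes; each point is 1 library. GSTF7 reached 8321 to 10571 FPKM in Tm-treated Col-0 at 24 h, and GSTU3 rose from at most 2.42 at 12 h to at least 70.3.

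The remaining members called higher in Col-0 were GSTU8 at 12 and 24 h (log2 fold change 1.45 and 1.98), GSTU9 at both times (1.15 and 1.06), GSTF10 at 12 h (1.21) and GSTU1 and GSTU2 at 24 h (1.26 and 1.08). GSTU8 was at 154, 159 and 176 FPKM in mock and 432, 496 and 419 after Tm at 12 h, and at 147, 139 and 140, and 530, 610 and 554, at 24 h. The groups stood apart at both times. With FPKM scaled between libraries the calls of GSTU9 at both times and of GSTU2 were lost. GSTU9 at 24 h was also lost without mock replicate 3. Besides these, GSTF8, a phi gene long used as a stress marker, was called higher in bzip28-2 at 12 h (1.03), as was GSTF10 (1.36), and GSTF14 in both mutants at 24 h (1.15 and 1.83).

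Sequence upstream of the genes was read from the reference assembly TAIR10.1 of RefSeq. Windows of 250 bases before to 50 after the start of all 39 members and of 27443 protein-coding genes were searched on both strands for exact matches. The core TGACG (or CGTCA) was present in 17 of 39 members (43.6%, beside 23.1% of all promoters), and a W-box, TTGACC or TTGACT, in 21 (53.8%, beside 32.4%). The W-box can overlap the TGACG core, as it does in GSTU11. A pair of TGACG cores within 20 bases, the as-1 type, was found in 2 (5.13%, beside 1.34%), namely GSTU1 and GSTU7. Of elements linked to the unfolded protein response, UPRE-I (TGACGTGA or TGACGTGG) was in 2 (GSTF8 and GSTF10; 5.13%, beside 2.16%), ERSE-I (CCAAT, 10 bases of any kind, then CACG) in 1 (GSTU17; 2.56%, beside 0.849%) and ERSE-II (ATTGG, 2 bases of any kind, then CACG) in 1 (GSTU9; 2.56%, beside 0.138%). The G-box CACGTG was in 3 (7.69%, beside 7.68%). Of the 9 steady risers 8 had a W-box and 3 a TGACG core, against 13 and 14 of the other 30 members. Matches of this kind are descriptions of the letters and were not tested.

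Shown are the 250 bases upstream of 5 steady risers with a W-box and of GSTU22, so that these matches can be read in place. Among these risers are GSTF7 and GSTU11, which GFP-bZIP60 peaks described below overlap. The GSTU11 peak takes in the printed bases. The peak at GSTF7 begins 34 bases after the gene start, so the printed GSTF7 bases lie outside it. Each sequence runs 5′ to 3′ on the gene's strand and ends 1 base before its start. All 6 genes are on the minus strand, and capitals mark TGACG and W-box matches on either strand.
GSTF7, chr1:659981-660230, TAIR10.1: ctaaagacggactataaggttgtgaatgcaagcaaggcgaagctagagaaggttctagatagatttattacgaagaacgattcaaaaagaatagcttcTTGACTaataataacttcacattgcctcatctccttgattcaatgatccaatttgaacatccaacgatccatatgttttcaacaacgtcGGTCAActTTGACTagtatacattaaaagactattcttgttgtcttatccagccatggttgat
GSTU4, chr2:12627892-12628141, TAIR10.1: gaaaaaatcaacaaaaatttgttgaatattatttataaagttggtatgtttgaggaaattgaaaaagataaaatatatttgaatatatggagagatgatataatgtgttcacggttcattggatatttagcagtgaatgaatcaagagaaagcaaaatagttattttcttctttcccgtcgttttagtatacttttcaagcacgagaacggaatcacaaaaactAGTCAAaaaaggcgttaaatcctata
GSTU3, chr2:12629641-12629890, TAIR10.1: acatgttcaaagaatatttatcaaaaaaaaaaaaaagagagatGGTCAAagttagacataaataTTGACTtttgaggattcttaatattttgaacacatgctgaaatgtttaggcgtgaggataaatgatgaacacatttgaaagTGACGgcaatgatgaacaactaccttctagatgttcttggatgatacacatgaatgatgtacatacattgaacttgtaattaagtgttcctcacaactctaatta
GSTU12, chr1:26335631-26335880, TAIR10.1: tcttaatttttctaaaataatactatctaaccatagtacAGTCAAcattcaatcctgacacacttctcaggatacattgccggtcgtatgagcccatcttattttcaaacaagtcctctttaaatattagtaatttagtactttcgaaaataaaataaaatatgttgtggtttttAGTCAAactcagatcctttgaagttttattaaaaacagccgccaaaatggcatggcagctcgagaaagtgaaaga
GSTU11, chr1:26338819-26339068, TAIR10.1: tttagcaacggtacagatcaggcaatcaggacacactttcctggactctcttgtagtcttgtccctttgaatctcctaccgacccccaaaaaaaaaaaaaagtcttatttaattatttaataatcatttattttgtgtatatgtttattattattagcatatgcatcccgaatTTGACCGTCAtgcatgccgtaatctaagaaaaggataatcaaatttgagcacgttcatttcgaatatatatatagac
GSTU22, chr1:29474004-29474253, TAIR10.1: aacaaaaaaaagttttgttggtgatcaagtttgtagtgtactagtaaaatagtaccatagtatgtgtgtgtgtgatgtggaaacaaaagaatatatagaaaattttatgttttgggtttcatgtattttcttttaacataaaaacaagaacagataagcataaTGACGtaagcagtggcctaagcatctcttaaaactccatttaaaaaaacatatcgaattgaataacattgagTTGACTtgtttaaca
GSTF7 holds 3 W-boxes, GSTU3 and GSTU12 2 W-boxes each, and GSTU4, GSTU11 and GSTU22 1 each. GSTU3, GSTU11 and GSTU22 hold 1 TGACG core each, and none of the 6 holds a G-box. GSTF2, the riser without a W-box, has 0 matches of these elements upstream.

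Neighbouring genes did not always respond alike. By gaps under 5000 bases, 27 members fell into 10 clusters, the longest being GSTU1 to GSTU7 on chromosome 2 (12617936 to 12632538). In that array GSTU1, GSTU2, GSTU3 and GSTU4 were called higher in Col-0 at 24 h, with log2 fold changes of 1.26, 1.08, 6.22 and 4.61, and GSTU5, GSTU6 and GSTU7 were not called (0.82, 0.24 and 0.37). GSTU12 and GSTU11 on chromosome 1 (26334250 to 26338818) both rose in every genotype, as did GSTF7 and GSTF6 (658578 to 662475). In the pair GSTF9 and GSTF10 on chromosome 2, GSTF10 was called in Col-0 at 12 h and GSTF9 nowhere. Altogether 11 members overlap another annotated gene. GSTF11 lies wholly within such an overlap, and GSTF2 by 1442 bases, and whether the FPKM were computed with strand is not given in the sources used here, so their reads could include those of the partner.

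Fewer members were lower after Tm. GSTU20 (AT1G78370), which interacts with a jasmonate-conjugating enzyme, and GSTF12 (AT5G17220), known as TT19 and needed for anthocyanin to reach the vacuole, were called lower at 12 h in all 3 genotypes. GSTF12 in Col-0 was at 175, 212 and 185 FPKM in mock and 36.8, 38.2 and 52.4 after Tm (log2 fold change -2.15, SE 0.16, adjusted p = 0.00029), and the log2 fold change was -2.45 in bzip28-2 and -2.97 in bzip60-2. At 24 h mock and Tm libraries of Col-0 overlapped (4.27, 13.6 and 9.51, against 10.5, 15 and 8.45). The mock seedlings peaked at 12 h, and the Tm-treated ones stayed well below that peak.

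GSTU20 in Col-0 at 12 h was at 690, 545 and 757 FPKM in mock and 270, 211 and 337 after Tm (log2 fold change -1.3, SE 0.21, adjusted p = 0.005), with -1.10 in bzip28-2 and -1.25 in bzip60-2. GSTU17, a gene tied to light and drought responses, was at 144, 147 and 143 in mock and 67.8, 62.3 and 68.6 after Tm at 12 h (-1.12, SE 0.05, adjusted p = 7e-05). These groups did not overlap. At 0 and 24 h GSTU17 stood the other way, with 92.7, 115 and 147 against 198, 247 and 254 FPKM at 0 h and 19.1, 24.7 and 22.8 against 41.4, 39.7 and 48.8 at 24 h, short of the calling threshold (log2 fold change 0.99 and 0.93). GSTF11 at 12 h (-1.02) and GSTU18 at 24 h (-1.11) were the other Col-0 calls. GSTU18 was at 47.1, 32.5 and 37.8 FPKM in mock and 19.0, 15.6 and 17.9 after Tm. The calls of GSTU20, GSTF11 and GSTU18 were each lost without 1 of 4 single libraries: for GSTU20 (which was also lost with no filter on low values) and GSTF11 Tm replicate 1, Tm replicate 2, mock replicate 1 or mock replicate 3, and for GSTU18 replicate 1 or 3 of either treatment. With scaled FPKM 11 members were higher and 7 lower in Col-0 at 12 h, and over all genes the share of higher calls was 64.8% in place of 80.1%.

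**Figure D4:**
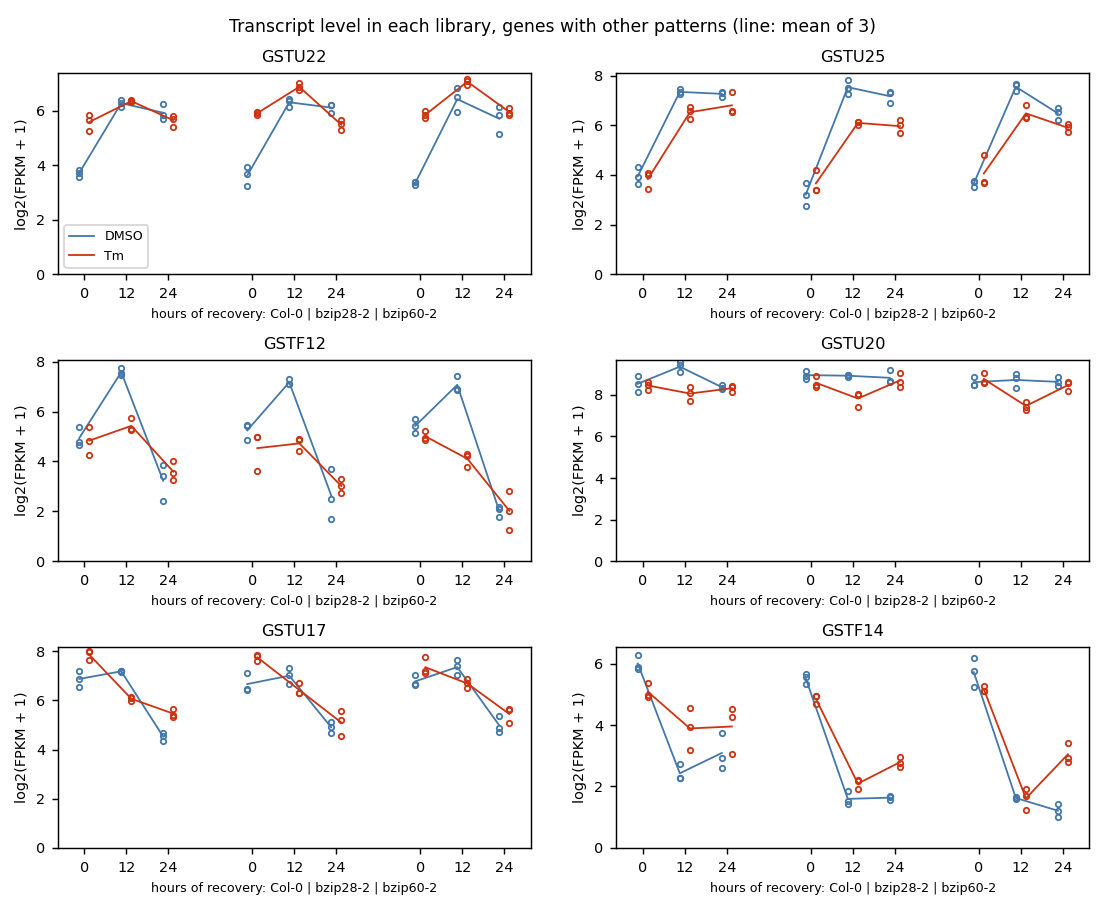
Level of GSTU22, GSTU25, GSTF12, GSTU20, GSTU17 and GSTF14 as log2(FPKM + 1) against hours of recovery in mock and Tm-treated seedlings of the 3 genotypes; each point is 1 library. GSTF12 peaked in mock Col-0 at 12 h (175 to 212 FPKM), where Tm-treated seedlings had 36.8 to 52.4.

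Further members were called lower in the mutants. At 12 h GSTU14, GSTU25, GSTU26 and GSTF13 were called lower in both mutants and GSTU28 in bzip28-2, and GSTF11 was called in bzip60-2 as in Col-0. GSTU25, a tau enzyme able to conjugate the explosive TNT, had log2 fold changes of -1.44 in bzip28-2 and -1.07 in bzip60-2, beside -0.82 in Col-0. GSTU26 had -1.77 and -1.45, beside -0.86. At 24 h GSTU25 (-1.21) and GSTU26 (-1.38) were called in bzip28-2, and GSTU26 (-1.47) and GSTF13 (-1.04) in bzip60-2. In none of these did the difference from Col-0 pass the test described next, which rests on pairing by replicate number. The numbers did not pair the libraries. Without the pairing, 1 member at 12 h and 2 at 24 h were called with a lower log2 fold change in each mutant than in Col-0. Whether these are among the genes named here is not given.

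Each mutant was compared with Col-0 on the replicates' own log2 fold changes, with a call at an adjusted p under 0.05 (limma, Benjamini-Hochberg). The first counts below rest on pairing by replicate number, which did not pair the libraries, and counts without it follow them. At 0 h 0 members were called in either mutant (0.00457% of all genes in each), and at 24 h 0 again (0% of all genes in bzip28-2 and 0.00457% in bzip60-2). At an unadjusted p under 0.05 there were 7 of 37 members in bzip28-2 (7.71% of all genes) and 3 in bzip60-2 (5.70%) at 0 h, and 3 (14%) and 9 (15.5%) at 24 h. At 12 h, 1 member was called in bzip28-2 (2.02% of all genes) and 2 in bzip60-2 (2.61%). These were 2.70% and 5.41% of the members tested, 1 or 2 genes, close to the background. This test subtracts mock of the same replicate number, and the numbers did not pair the libraries. Without that pairing 5 members were called in bzip28-2 and 4 in bzip60-2 at 12 h (4.18% and 6.3% of all genes). The log2 fold change was higher than in Col-0 in 4 and lower in 1 in bzip28-2, and higher in 3 and lower in 1 in bzip60-2. At 24 h 2 were called in each mutant (1.1% and 1.37%), 0 higher and 2 lower in each. With the pairing, the called members were GSTU3 in both mutants and GSTU12 in bzip60-2, and all 3 differences were toward a larger response in the mutant.

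GSTU3 after Tm at 12 h was at 1.43, 2.42 and 2.11 FPKM in Col-0, at 14, 11.9 and 19.7 in bzip28-2 and at 21.9, 39.9 and 30.5 in bzip60-2, while no mock library of that time exceeded 0.524. The difference in log2 fold change from Col-0 was 2.36 in bzip28-2 (SE 0.25, adjusted p = 0.0294) and 3.07 in bzip60-2 (SE 0.32, adjusted p = 0.0264). GSTU12 (AT1G69920) was at 1.61, 3.14 and 2.96 in Col-0, at 6.56, 7.42 and 8.00 in bzip28-2 and at 18.5, 29.5 and 23.7 in bzip60-2. Its difference was 2.59 in bzip60-2 (SE 0.22, adjusted p = 0.0244) and 1.08 in bzip28-2, which did not pass (adjusted p = 0.0634). For both genes every mutant library at 12 h stood above every Col-0 library, and both comparisons share the Col-0 libraries. At 24 h the genotypes overlapped, GSTU3 being at 89.0, 70.3 and 94.4 in Col-0, 125, 31.1 and 184 in bzip28-2 and 100, 109 and 68.8 in bzip60-2.

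The calls were narrow. Leaving out any 1 replicate ended that of GSTU3 in bzip28-2, and leaving out any 1 Col-0 replicate ended all 3, with adjusted p up to 0.152 for GSTU3 in bzip28-2, 0.151 in bzip60-2 and 0.136 for GSTU12 over the alternatives. In bzip60-2 the loss of replicate 2 ended that of GSTU3 and the loss of replicate 3 both. A pseudocount of 0.1 ended them too, with the direction kept. The summed green-tissue markers after Tm at 12 h were 17061 to 21542 FPKM in Col-0, 9078 to 15824 in bzip28-2 and 4810 to 10288 in bzip60-2, and 1, 1 and 0 of the 4 were called lower against mock. The summed root markers were 1679 to 1968, 1328 to 1559 and 1521 to 1827, and 0, 5 and 2 of the 5 were called lower. Their part in the difference was not tested. Among all genes called in this comparison, the share with a more positive log2 fold change in the mutant was 40.1% in bzip28-2 and 37.8% in bzip60-2. With scaled FPKM these shares were 60.1% and 60.8%. A gene lowered more strongly in the mutant falls outside these shares, so they do not measure the size of the response.

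After Tm at 12 h the phi genes showed a like order in level, without a call. Their summed share of all FPKM was 1.33% to 1.45% in Col-0, 1.89% to 2.19% in bzip28-2 and 1.95% to 2.68% in bzip60-2. The mutants did not overlap Col-0. In mock the mean share was 0.342%, 0.302% and 0.389% in the same genotypes. The response to Tm did not keep this order. The ratio of means, Tm over mock, was 33.57, 46.79 and 30.05 for GSTF7. It was 5.29, 10.4 and 8.19 for GSTF6, and 8.63, 15.2 and 8.88 for GSTF2. The median difference in log2 fold change from Col-0 over the 11 phi genes was 0.24 in bzip28-2 and -0.26 in bzip60-2. At 24 h the ranges of the share after Tm were 2.34% to 2.79%, 1.20% to 2.81% and 1.61% to 2.39%. Replicate 2 of Tm-treated bzip28-2 was the low library there, with GSTF7 at 3591 FPKM beside 7291 and 10111. The same library had the highest summed green markers of its group (15405 FPKM against 4117 as the lowest).

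In mock seedlings no member passed the test between genotypes. Of 37 members 0 were called with limma between mutant and Col-0 at 0, 12 or 24 h, beside 0.0183%, 0.0183% and 0.0183% of all genes in bzip28-2 and 0.00915%, 0.0229% and 0.0183% in bzip60-2. At an unadjusted p under 0.05 there were 10, 6 and 6 members in bzip28-2, beside 8.73%, 16.5% and 6.28% of all genes, and 5, 17 and 10 in bzip60-2, beside 19.2%, 23.7% and 14.2%.

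Some members differed between time-points in mock Col-0, where hours of recovery cannot be told apart from time of day and seedling age. From 0 to 12 h, 6 were higher and 1 lower (1.59% and 2.2% of all genes), while the median of all genes shifted by -0.23 on the log2 scale. The 6 were GSTU8 (1.16), GSTU22 (2.56), GSTU24 (1.20), GSTU25 (3.41), GSTF6 (1.51) and GSTF12 (2.65), and GSTF14 fell by 3.57. With scaled FPKM the shift was 0, 8 members were higher and 1 lower, the same 7 were called again, and over all genes the share of higher calls was 74.6% in place of 42.0%. From 0 to 24 h, 3 were higher, namely GSTU18 (1.3), GSTU22 (2.21) and GSTU25 (3.33), and 2 lower, GSTU17 (-2.35) and GSTF14 (-2.91), beside 1.75% and 1.16% of all genes. These counts fell to 1 without mock replicate 1 or 3 of 12 h, 3 without replicate 2 of 12 h and 4 without replicate 2 of 0 h. For 24 h they fell to 0 without replicate 3 of 24 h, 1 without replicate 2 of 0 h, 2 without replicate 2 of 24 h, and 3 without replicate 1 of either time or replicate 3 of 0 h.

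The change of the Tm response over time was tested in Col-0 in the same way as between genotypes. It thus used the pairing by replicate number that did not pair the libraries. From 0 to 12 h the log2 fold change became higher in 17 members and lower in 8 (18.4% and 6.61% of all genes), led by GSTF7 (4.84), GSTU4 (3.55) and GSTF2 (3.17) on one side and GSTU17 (-2.10), GSTF12 (-2.05) and GSTU22 (-1.80) on the other. With scaled FPKM 13 were higher and 8 lower, and over all genes the share of higher calls was 50.2% in place of 73.6%. From 12 to 24 h it became higher in 12 and lower in 2 (5.46% and 6.22%), led by GSTU3 (4.73), GSTF6 (3.31) and GSTF12 (2.52). With scaled FPKM 14 were higher and 1 lower, with 61.6% in place of 46.8% over all genes. The count of 14 fell to 5 without replicate 1 of 12 h, 7 without replicate 2 or 3 of 12 h and 6 without replicate 3 of 24 h. Without the pairing, 15 members were higher and 7 lower from 0 to 12 h, beside 26.2% of all genes called in either direction. From 12 to 24 h 16 were higher and 2 lower, beside 13.6%. Both intervals share the 12 h libraries.

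Peaks of the bZIP factors overlapped members only in the lists of 24 h. Of the genes overlapped by a peak, 0 members were among the 0.627% and 0.434% of protein-coding genes at 0 and 12 h for GFP-bZIP28, or among the 1.13% and 0.394% for GFP-bZIP60. Beside such low shares 0 of 39 members is near the background, so no time pattern is read from it. At 24 h a peak overlapped 4 of 39 members for GFP-bZIP28 (1.51% of genes) and 3 for GFP-bZIP60 (0.685%). The lists of 0, 12 and 24 h held 130, 92 and 454 peaks for GFP-bZIP28, and 250, 47 and 170 for GFP-bZIP60. The authors called peaks per sample, combined replicates by reproducibility and removed peaks shared with mock seedlings, so 1 list per factor and time was analysed and no replicate error could be given.

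GSTF6 was named by the authors' lists for both factors. On the TAIR10 build, the GFP-bZIP60 peak ran from 660609 to 662915 on chromosome 1, with a MACS2 signal score of 6.62 (rank 23 of 170) and all of the gene within it, from -440 to 1866 bases from the start. GFP-bZIP28 had 2 peaks there, 660725 to 661645 (score 5.22, rank 101 of 454) and 661694 to 662077 (score 2.21, rank 436). The gene body and not only the promoter was thus covered. At GSTF7 a GFP-bZIP60 peak (658096 to 659946, score 6.59, rank 24) covered 97.6% of the gene, and a GFP-bZIP28 peak (658042 to 658770, score 6.27, rank 72) covered 13.8%, both named for the neighbouring gene AT1G02910.

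GSTU11 (AT1G69930) lay within a GFP-bZIP60 peak on chromosome 1 (26337007 to 26339346, score 4.80, rank 65), from -528 to 1811 bases from its start. GSTU8 (AT3G09270) was named for a GFP-bZIP28 peak on chromosome 3 (2847812 to 2848404, score 3.46, rank 236), which lies over the 3′ end of the gene, 1282 to 1874 bases from its start. The last 31 bases of GSTF8 fell in a peak named for AT2G47740. All 3 members under a GFP-bZIP60 peak, GSTF6, GSTF7 and GSTU11, were steady risers, beside 9 of the 37 members tested. GSTF6 and GSTF7 are neighbours. Under a GFP-bZIP28 peak GSTF6 and GSTF7 were steady risers, and GSTU8 and GSTF8 were not. The share of risers among all genes under a peak was not computed, and a link of peaks to the rise was not tested. GSTU11 at 24 h in Col-0 was at 37.9, 46.5 and 46.1 FPKM after Tm against 0.838, 1.48 and 1.07 in mock, and GSTF6 and GSTF7 are given above. In bzip60-2 GSTU11 was at 44.3, 41.2 and 29.2 after Tm at 24 h, and in bzip28-2 at 27.4, 13 and 37.9. None of the printed sequences holds ERSE-I, ERSE-II or UPRE-I in its searched window. The printed GSTU11 sequence lies under its GFP-bZIP60 peak, and that of GSTF7 does not.

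**Figure D5:**
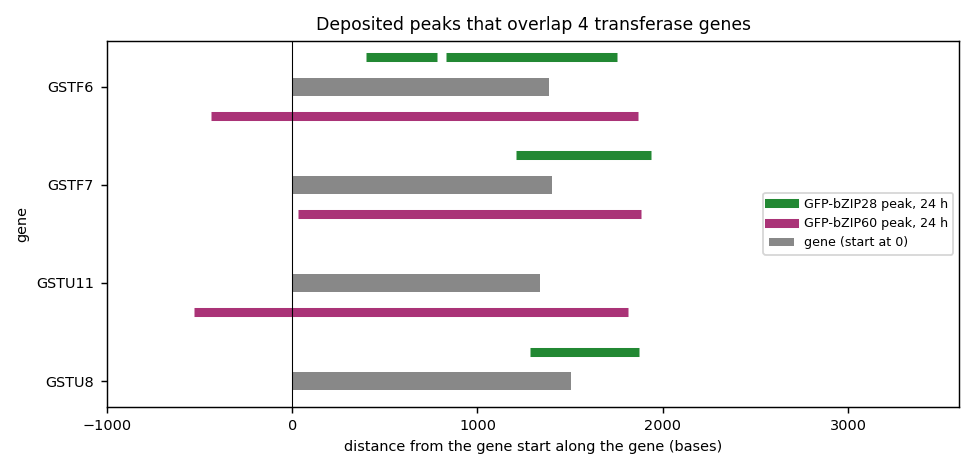
Extent of the GFP-bZIP28 and GFP-bZIP60 peaks of 24 h at GSTF6, GSTF7, GSTU11 and GSTU8, drawn by distance in bases from the start of each gene along its strand. The GFP-bZIP60 peak at GSTF6 runs from -440 to 1866 and the GFP-bZIP28 peak at GSTU8 lies at the 3′ end, from 1282 to 1874.

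Other genes of glutathione metabolism and detoxification were read from lists. Of 14 further transferase genes (GSTF4, GSTF5 and the zeta, theta, lambda, DHAR and TCHQD classes), 1 was higher and 0 lower in Col-0 at 12 h, and 3 higher and 1 lower at 24 h. Over all genes 7.18% were higher at 12 h and 7.39% at 24 h, and 1 of 14 is no more than that share. The 1 was GSTL1, a lambda-class gene (log2 fold change 1.68 at 12 h). Of 9 tested genes of glutathione synthesis, reduction, breakdown and conjugate transport, 2 were higher at 12 h and 3 at 24 h, with 0 lower. They were ABCC3, a vacuolar transporter of glutathione conjugates (2.04 at 12 h), and GGT1, an apoplastic enzyme that breaks glutathione down (1.86), joined at 24 h by the glutathione reductase GR1 (1.13). Neither synthesis enzyme, GSH1 nor GSH2, was called.

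Of 8 TGA factors and their coactivator SCL14, 1 was higher at 12 h (TGA3, 1.64) and 1 at 24 h (TGA7, 1.31). Over all genes 7.18% and 7.39% were higher at these times, and 1 of 8 is a single gene, near that share. Of 9 other detoxification genes 4 were higher at 12 h and 2 at 24 h, with 0 lower, beside the same shares. ABCG40, a plasma membrane transporter, had a log2 fold change of 5.36 at 12 h, CYP81D8, a cytochrome P450, 3.46 and UGT73B5, a glycosyltransferase, 1.36. The median log2 fold change at 12 h was 0.12, 0.22, 0.42 and 0.69 in the 4 lists in the order given, beside 0.20 in the tau and phi members and 0.08 over all genes.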

How the data were processed

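Per the labels and the study's methods, the authors made TruSeq stranded mRNA libraries, sequenced single ends of 50 nt, checked and trimmed the reads (FastQC 0.11.5, cutadapt 1.8.1), aligned them to TAIR10 (Bowtie2 2.2.4, TopHat2 2.0.14) and deposited FPKM per gene and library from Cufflinks 1.3.0. No scaling between libraries is stated, and whether Cufflinks used strand is not given in the sources used here. For ChIP-seq the authors aligned with Bowtie 1.1.2, used SAMtools 1.8, called peaks per sample against input with MACS2 2.1.2, kept peaks by reproducibility between 2 replicates (IDR under 0.05), and removed Tm peaks that shared over 30% with a mock peak unless far stronger. The deposited score of a peak is its MACS2 signal.

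Relative depth was read from low FPKM, where 77.6% of 47185 low values of 2704 genes lay within 0.1 of whole multiples of a step. Evenly spread values give 20% when no step is fitted. The steps here were fitted to these same values, which raises the share, so the 77.6% is no test that steps exist. This share was too low to recover reads, so no count test was run and fold changes were tested with limma 3.58.1 in R 4.3.3 (lmFit, eBayes with a mean-variance trend, two-sided) on log2(FPKM + 1), with the 3 + 3 libraries compared and Benjamini-Hochberg adjustment over 21864 genes. Differences between genotypes or times used the log2 fold change of each replicate, Tm minus mock of the same number. The precision of each value is given by its replicates. Tests were checked on simulated data.

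Peak overlaps, positions and sequences used Python 3.11.15, numpy 2.4.6, pandas 2.3.3 and the TAIR10.1 assembly of RefSeq, where 654 of 674 promoter peaks lay within 1 kb of the start of the gene that the authors named. Figures used matplotlib 3.10.9.

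The members and lists were chosen with earlier results of these data known. Values in each replicate are given for the 3 largest called changes in each direction in Col-0 at each time, the 3 largest called differences per mutant and time, the 5 members of highest mean and those named in a peak list, and other members by counts and ranges. From each other list at most 3 called genes are named by size of change at 12 h, and GR1 and TGA7, called at 24 h, were named after their values were seen. Alternatives were a pseudocount of 0.1, scaled FPKM (median ratio to each gene's geometric mean), no filter (28053 genes), genes whose mean FPKM was at least 1 (19816), a single fit of every library, limma with no trend, a call at an adjusted p under 0.05 or at an unadjusted p under 0.01 among 5012 genes called in any group, a replicate block added or dropped, and each replicate left out in turn.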

Additional observations from a re-analysis of the deposited data

Results flagged for a closer look

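The response of 2 members to Tm differed between a mutant and Col-0 by limma's test of the difference at 12 h, where 2.02% of all genes were called in bzip28-2 and 2.61% in bzip60-2. GSTU3 had a log2 fold change larger by 2.36 in bzip28-2 and by 3.07 in bzip60-2, and GSTU12 one larger by 2.59 in bzip60-2. The mutant libraries stood above Col-0 in 3 of 3 replicates each time. Leaving out any 1 Col-0 replicate, or a pseudocount of 0.1, ended all 3 calls.

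The response in Col-0 also differed between time-points by the same test, which pairs by replicate number although the numbers did not pair the libraries. From 0 to 12 h the log2 fold change rose in 7 phi members, by 4.84 in GSTF7, 3.17 in GSTF2, 2.38 in GSTF14, 2.03 in GSTF6, 1.89 in GSTF3, 1.09 in GSTF8 and 1.09 in GSTF10. It rose in 10 tau members, by 3.55 in GSTU4, 2.66 in GSTU11, 2.45 in GSTU10, 1.27 in GSTU3, 1.21 in GSTU8, 1.11 in GSTU9, 0.81 in GSTU28, 0.66 in GSTU7, 0.62 in GSTU1 and 0.56 in GSTU19. It was lower in 8 members, with differences of -2.10 in GSTU17, -2.05 in GSTF12, -1.80 in GSTU22, -1.24 in GSTU26, -1.21 in GSTU20, -1.07 in GSTF11, -0.72 in GSTU18 and -0.69 in GSTU14.

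From 12 to 24 h the log2 fold change rose by 4.73 in GSTU3, 3.31 in GSTF6, 2.52 in GSTF12, 2.26 in GSTU12, 2.05 in GSTU17, 1.78 in GSTU11, 1.35 in GSTU5, 1.24 in GSTU20, 1.09 in GSTU10, 0.89 in GSTF11, 0.87 in GSTU2 and 0.74 in GSTU1. It was lower by a difference of -0.73 in GSTF8 and -0.72 in GSTU18. GSTU17, GSTU20, GSTF11 and GSTF12 thus had a negative and then a positive difference. Both intervals share the 12 h libraries, so these differences are not independent.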

How the results depend on the processing

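No member call reversed under any alternative run. Of 1142 values of called members under settings other than leaving out a replicate, 1044 stayed called and 98 did not, and of 888 values without 1 replicate 616 and 272. Counts of called members moved by over 1.5 times as follows. At 0 h after Tm the count was 0 in Col-0 with no filter, 2 in both mutants with a mean FPKM of at least 1, 2 in Col-0 and 4 in each mutant with 1 fit over all libraries, and 3 in bzip28-2 and 2 in bzip60-2 at an adjusted p under 0.05. For the log2 fold change of bzip28-2 against Col-0 at 12 h it was 0 with a pseudocount of 0.1, 4 with a mean FPKM of at least 1, 2 with no trend and 10 at an unadjusted p under 0.01 among called genes, and for bzip60-2 at 12 h 0 and 4 with the first and last of these. The last gave 2 for bzip28-2 at 24 h, 1 for bzip60-2 at 0 h and 3 at 24 h. In mock Col-0 it was 4 for 12 h against 0 h and 3 for 24 h against 0 h with no filter. Between mutant and Col-0 mock seedlings 1 fit over all libraries gave 1 for bzip28-2 at 0 and at 24 h and 2 for bzip60-2 at 12 and at 24 h, where a mean FPKM of at least 1 gave 1 and an adjusted p under 0.05 gave 3 at 12 h.

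The replicate numbers did not pair the libraries. Deviations of same-numbered libraries correlated at -0.282 to 0.133, 0 of 9 sets had every correlation over 0.1, and 18 of 54 libraries were closest to their own number. With the replicate block the count after Tm was 0 at 0 h in all 3 genotypes, 0 in bzip28-2 at 24 h, 10 in bzip60-2 at 12 h and 4 at 24 h, and 0 in mock Col-0 for both time comparisons. With no replicate block in the comparison of log2 fold changes it was 5 for bzip28-2 and 4 for bzip60-2 at 12 h and 2 for each at 24 h. For the Col-0 response over time it was 22 for 12 h against 0 h and 18 for 24 h against 12 h.

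Without 1 replicate, the count after Tm ran in Col-0 from 0 to 1 at 0 h, 13 to 16 at 12 h and 12 to 15 at 24 h, in bzip28-2 from 0 to 2, 15 to 17 and 0 to 14, and in bzip60-2 from 10 to 16 at 12 h and 7 to 15 at 24 h. It was 0 to 0 for bzip28-2 and 0 to 2 for bzip60-2 against Col-0 at 12 h, 17 to 23 for 12 h against 0 h and 5 to 12 for 24 h against 12 h in Col-0, and 1 to 5 and 0 to 3 in mock Col-0 at 12 and 24 h. The causes were not tested, beyond the fewer samples in each such fit. Genes at few reads, such as GSTU3 and GSTU12 in mock seedlings, are those where the pseudocount and depth limit the values most.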
